A study of Mus musculus with 12 samples.

Results

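Transcripts of 6 genes of the Hedgehog pathway (Gli1, Gli2, Gli3, Ptch1, Smo and Sufu) were followed in neural stem/progenitor cells (NSPCs) whose cholesterol synthesis was inhibited with pravastatin. The genes were taken by name from the expression table of both sexes, which lists 16106 genes, and 5 of the 6 were found there. Gli1 was not analysed here. The NSPCs were grown as neurospheres, free-floating clusters of dividing cells, from the cortex of C57BL/6 mouse embryos at embryonic day 14.5 and were used at passage 3. Cells of 3 female and 3 male embryos were given vehicle (PBS) or 10 μM pravastatin for 24 h, which gave 12 RNA-Seq libraries in 4 groups of 3. Vehicle and pravastatin libraries with the same sex and number are called a culture here (6 cultures). The 6 vehicle libraries also belong to another deposited study, and whether they were prepared together with the pravastatin libraries is not given in the sources used here, so preparation and treatment cannot be told apart.

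Hedgehog ligands bind Patched 1 (Ptch1) on the primary cilium, a sensory protrusion of the cell, which relieves the block that Ptch1 places on Smoothened (Smo). Active Smo changes the Gli proteins, which are otherwise held by Suppressor of fused (Sufu) or trimmed to repressors, into activators of target genes. In the embryonic brain the pathway patterns ventral tissue and promotes precursor division. The pathway meets sterols at several points, since the ligand carries cholesterol, Ptch1 resembles sterol transporters and Smo is bound and modified by cholesterol. Pravastatin inhibits cholesterol synthesis, and a fall in cell sterol releases the transcription factor SREBP2, which raises the genes of cholesterol synthesis and uptake. The question addressed here is whether transcripts of the Hedgehog pathway moved with the sterol genes.

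RefSeq (GRCm38.p6) gave a window of 250 bases before to 50 bases after the start for 5 of the 6 members. Windows are printed for Ptch1, the receptor, for Gli2, the member that followed Ptch1 most closely across libraries, and for Hmgcs1, a sterol gene that rose in all 6 cultures. Capitals mark a match to an SREBP motif (TCACNCCAC, searched on both strands), and lower case is the rest.
Ptch1: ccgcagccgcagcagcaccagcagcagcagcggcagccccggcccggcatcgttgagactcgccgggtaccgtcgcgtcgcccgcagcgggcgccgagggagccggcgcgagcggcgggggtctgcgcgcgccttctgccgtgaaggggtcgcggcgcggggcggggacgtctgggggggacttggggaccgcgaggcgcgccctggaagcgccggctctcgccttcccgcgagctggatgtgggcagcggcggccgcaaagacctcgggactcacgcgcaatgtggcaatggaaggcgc
Gli2: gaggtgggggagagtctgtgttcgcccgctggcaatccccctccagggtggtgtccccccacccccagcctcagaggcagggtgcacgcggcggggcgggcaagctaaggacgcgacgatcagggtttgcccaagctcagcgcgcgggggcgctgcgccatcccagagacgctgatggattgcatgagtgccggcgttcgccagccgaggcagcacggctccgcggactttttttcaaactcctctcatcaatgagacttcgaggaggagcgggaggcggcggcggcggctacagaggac
Hmgcs1: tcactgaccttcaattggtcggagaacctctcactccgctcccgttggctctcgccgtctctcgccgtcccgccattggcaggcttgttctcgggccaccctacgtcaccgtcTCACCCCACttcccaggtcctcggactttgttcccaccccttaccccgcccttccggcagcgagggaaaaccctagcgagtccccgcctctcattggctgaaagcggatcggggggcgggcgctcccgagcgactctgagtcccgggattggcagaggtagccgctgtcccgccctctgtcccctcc
The Ptch1 window is chr13:63565686-63565985 on the minus strand (76.3% G or C), the Gli2 window chr1:119053570-119053869 on the minus strand (67.3%) and the Hmgcs1 window chr13:119690101-119690400 on the plus strand (65.7%). The Ptch1 gene model given below runs to chr13:63573598, so its window lies at a start inside that model. Motif counts for Ptch1 do not cover the outermost start. The motif in Hmgcs1 starts at position -137 from the transcript start. It occurred in 408 of all 32851 promoter windows (1.24%), in 0 of the 5 member windows and in 1 of the 10 windows of the sterol genes. A GLI motif (TGGGTGGTC, both strands) occurred in 83 windows (0.253%) and in none of the members or sterol genes. The motifs did not overlap in the printed windows. These are letter matches in a short window and say nothing about binding.

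The level of each member was read as a normalised value, the read count over an effective library size on a CPM scale, from libraries of 13353619 to 18422845 reads. For a comparison between genes the value was divided by exon length in kb (GENCODE vM21 on GRCm38, all exons of a gene joined). Smo, the signal transducer (chr6:29735503-29761365, plus strand), had the highest level at 17.3 ± 0.898 per kb (SD, n = 12 libraries), and its libraries ran from 15.4 to 18.8. Ptch1 (chr13:63508328-63573598, minus strand) followed at 8.26 ± 1.95 per kb, with a range of 6.12 to 11.7. Sufu, the inhibitor of Gli (chr19:46396896-46488804, plus strand), stood at 3.58 ± 0.507 per kb (2.86 to 4.84). Gli3, mainly a repressor (chr13:15463235-15730026, plus strand), stood at 2.07 ± 0.338 per kb (1.56 to 2.72), and Gli2, an activator (chr1:118834132-119053619, minus strand), was lowest at 0.688 ± 0.297 per kb (0.439 to 1.27). No neighbours in this order overlapped in their ranges, and the closest were Sufu and Gli3, whose lowest (2.86) and highest (2.72) libraries lay near each other. Gli2 rested on 40 to 150 reads a library, and the other members on 249 to 2871 reads. Reads of Gli2, Gli3, Ptch1 and Smo could include those of overlapping gene models (Mir6346 on the strand opposite Gli2, Gm48343 and Gm6556 at Gli3, A930032L01Rik at Ptch1 and Gm13717 at Smo), and the strand setting of the counting is not given in the sources used here.

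**Figure D1:**
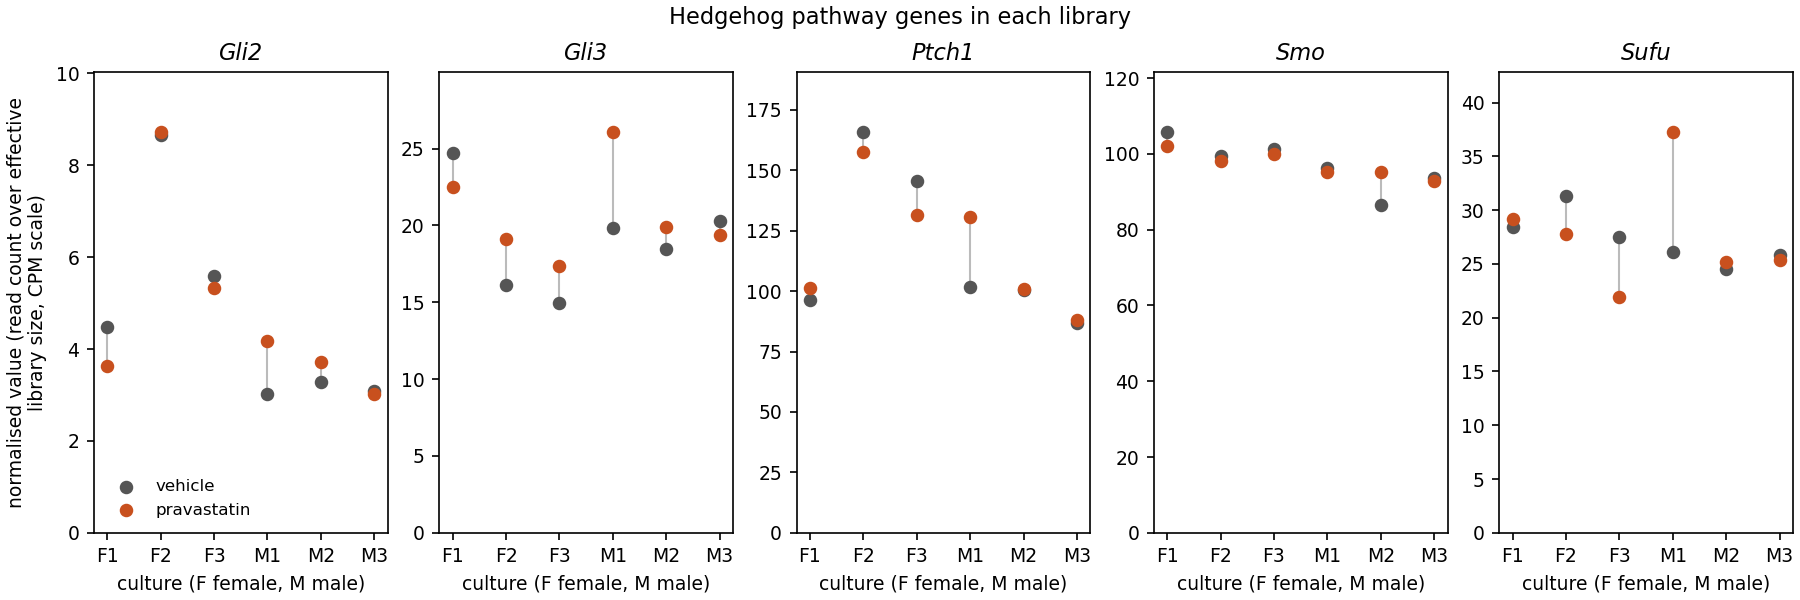
Normalised value (read count over effective library size, CPM scale, axis from 0) of the 5 members in each library, with the 2 points of a culture joined. Ptch1 and Gli2 were high in female cultures 2 and 3, Smo was even, and in male culture 1 the pravastatin point lay above the vehicle point for Gli2, Gli3, Ptch1 and Sufu.

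Pravastatin moved none of the 5 measured members past the test. Ptch1, the receptor and itself a target of the pathway, had values of 96.4, 166, 145, 102, 100 and 86.8 with vehicle in female cultures 1 to 3 and male cultures 1 to 3. With pravastatin it had 101, 158, 132, 130, 101 and 88.1, so the treatments overlapped, and female cultures 2 and 3 were high with either. Its log2 fold change on the scale of value + 0.5 was 0.04 ± 0.15 (SE, n = 6 per treatment, adjusted p = 0.918, limma with sex as covariate), with a 95% interval of 0.823 to 1.28-fold. Smo gave 106, 99.5, 101, 96.3, 86.6 and 93.5 with vehicle and 102, 98.1, 99.9, 95.1, 95.2 and 92.8 with pravastatin in the same order. Smo differed by 0.003 ± 0.045 (log2, SE, adjusted p = 0.984, limma), and its interval, 0.936 to 1.07-fold, was the narrowest of the 5.

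Gli2, the main activator, had 4.48, 8.66, 5.59, 3.02, 3.28 and 3.08 with vehicle and 3.62, 8.72, 5.32, 4.18, 3.71 and 3.02 with pravastatin. It differed by 0.04 ± 0.20 (adjusted p = 0.948, limma) and was higher in 3 of 6 cultures. Gli3 had 24.7, 16.2, 15.0, 19.8, 18.5 and 20.3 with vehicle and 22.5, 19.2, 17.4, 26.1, 19.9 and 19.4 with pravastatin, a change of 0.12 ± 0.12 (adjusted p = 0.667, limma), higher in 4 of 6. Sufu had 28.5, 31.3, 27.5, 26.1, 24.6 and 25.9 with vehicle and 29.2, 27.8, 22.0, 37.2, 25.2 and 25.4 with pravastatin, a change of 0.01 ± 0.11 (adjusted p = 0.975, limma). The intervals were 0.763 to 1.38-fold for Gli2, 0.903 to 1.31-fold for Gli3 and 0.849 to 1.19-fold for Sufu. These intervals come from the fit with sex as covariate, and that fit did not exclude a change inside them. Some markers of other cells and states moved with pravastatin. Of 3 measured of 7 mural and meningeal markers, Pdgfrb ran from 0.365 to 4.15 with vehicle and from 10.0 to 21.9 with pravastatin and was higher in all 6 cultures, while Acta2 was lower in all 6 (0.635 to 6.26, then 0.396 to 4.07) and Col1a1 lower in 4 of 6, and their sum ran from 5.71 to 8.66 and from 13.6 to 25.5. The 8 markers of cycling cells summed to 962 to 2245 with vehicle and to 861 to 1813 with pravastatin, with a median change of -0.23, and 0 were called in both sexes (5 lower with culture terms). Of 6 neuron markers tested 1 was called, Snap25 (4.03 to 7.16 with vehicle, 12.2 to 41.7 with pravastatin), higher in all 6 cultures. Hes5 and Fabp7 of the stem markers and Gja1 of the astrocyte markers were lower in all 6, and Aldoc of the astrocyte markers was higher in all 6. None of the stem or astrocyte markers was called in both sexes. With culture terms 2 of 10 stem markers were lower, and of 7 astrocyte markers 2 were higher and 1 lower. The part of these markers in the results was not tested. With values rescaled to a common total, which moved the median of all genes from -0.01 to -0.07, Gli2 (-0.02), Ptch1 (-0.02), Smo (-0.06) and Sufu (-0.05) turned negative and Gli3 stayed at 0.06. Among all 15093 genes tested, 2.69% were called higher and 0.311% lower, and the members called were 0 of 5. With 1 term per culture 10.5% were called higher and 8.13% lower, and again 0 of 5 members. Their 95% intervals then ran from 0.877 to 1.20-fold for Gli2 and from 0.943 to 1.12-fold for Ptch1. Members with an unadjusted p under 0.05 numbered 0 of 5 in both fits.

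The sterol genes of the same libraries gave the contrast. Hmgcs1, an enzyme of cholesterol synthesis, rose by 1.67 ± 0.10 (log2, SE, adjusted p = 8.7e-07, limma) and did so in all 6 cultures. Insig1, a sterol sensor, Dhcr7, Sc5d, Cyp51 and Ebp, enzymes of synthesis, and Npc2, a lysosomal sterol carrier, were also called higher, between 0.59 and 1.72. Abca1, an exporter of cholesterol, fell by 3.13 ± 0.73 (adjusted p = 0.0381, limma), and Npc1, the lysosomal partner of Npc2, did not pass (0.13 ± 0.19, adjusted p = 0.791). Of the 12 genes listed, 10 rose and 1 fell, and the median change was 1.51, against 0.04 for the members and -0.01 for all genes. In females alone, 2 of the 12 were called higher and 0 lower, though the median change was 1.58. With culture terms 10 were called higher and 1 lower in females. The lack of calls among the members in the female fit without culture terms is therefore weak evidence of no change.

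**Figure D2:**
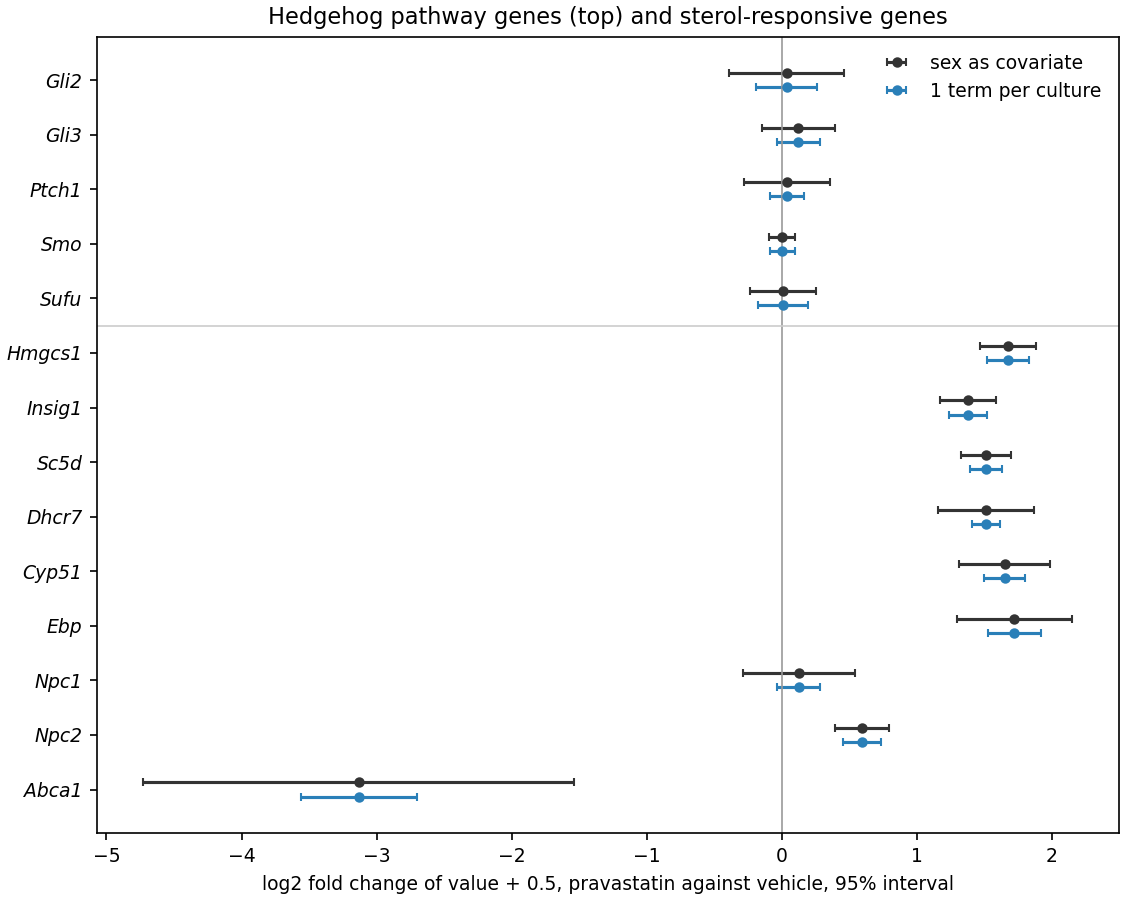
Log2 fold change of value + 0.5 with its 95% interval (bars), pravastatin against vehicle in both sexes, for the 5 members and 9 sterol genes, from a fit with sex as covariate (black) and one with a term per culture (blue). All 5 members span 0, and 7 of the sterol genes drawn were called higher and lie to the right.

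Within the sexes the members' directions were unlike, and the difference did not pass a test. In males all 5 were positive, with a median of 0.14, and in females 1 of 5 was, with a median of -0.05. With values rescaled to a common total, which moved the median of all genes in males from -0.00 to -0.08, Smo was at -0.04 in males and the other 4 stayed positive. None was called in males, where 6.08% of 15221 genes were called higher and 4.36% lower (10.1% and 8.78% with culture terms), or in females, where 0.0724% were higher and 0% lower (1.95% and 0.184% with culture terms). No gene was called for an interaction of sex and treatment (0% of 15765, also 0% with culture terms; limma, with 138 genes at an unadjusted p under 0.05, 106 in DESeq2, 148 in edgeR and 1145 in limma with culture terms, the last with 9 of 76 other pathway genes). If the response differed between the sexes for no gene, a share near 0.05 of genes would have an unadjusted p under 0.05. The 138 of 15765 in limma lies below that share, and the 1145 with culture terms lies above it. A lack of interaction calls without culture terms is therefore weak evidence, for any gene, that the sexes responded alike. Sufu had the lowest unadjusted interaction p of the members (0.167, adjusted p = 1.00, limma), and with culture terms its unadjusted p was 0.0488 (adjusted p = 0.666). Male culture 1 bore most of the male direction. In it, Gli2 differed by 0.41, Gli3 by 0.39, Ptch1 by 0.36 and Sufu by 0.50 on the log2 scale, while Smo differed by -0.02. Without male pravastatin 1 the change in both sexes was -0.02 for Gli2, -0.04 for Ptch1 and -0.09 for Sufu, and 0.06 for Gli3 (adjusted p from 0.726 to 0.988 for the 5 members, limma).

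**Figure D3:**
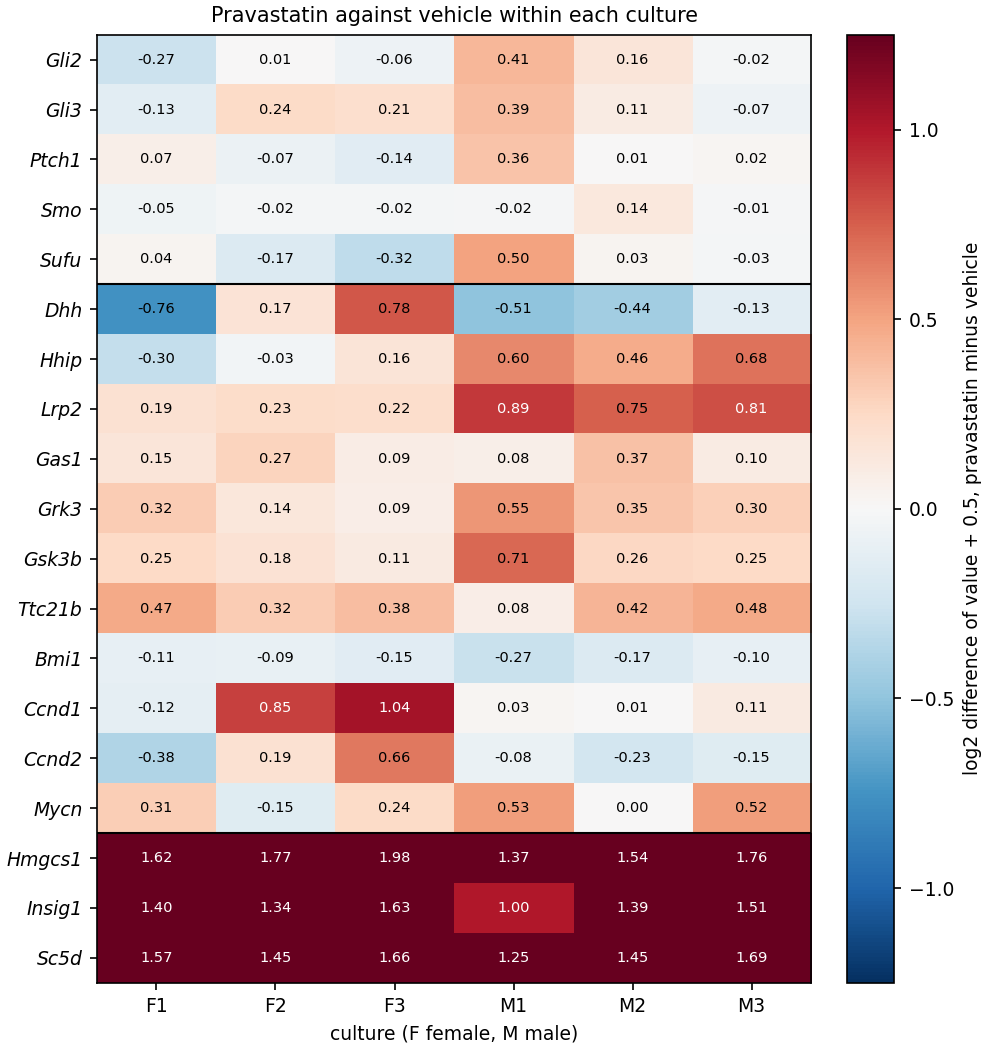
Log2 difference of value + 0.5, pravastatin minus vehicle, in each culture (columns) for the members (top), other pathway genes (middle) and 3 sterol genes (bottom). The sterol genes are positive throughout (1.00 to 1.98), while the members stay between -0.32 and 0.50.

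Of the wider pathway, 91 other genes were listed by role, 76 were in the table and 74 were tested in both sexes. In both sexes 2 of 74 were called higher and 0 lower (2.70% and 0%, near the 2.69% and 0.311% of all genes). With culture terms 10 were higher and 3 lower (13.5% and 4.05%, against 10.5% and 8.13% of all genes). In males 6 of 76 were called higher and 1 lower (7.89% and 1.32%, against 6.08% and 4.36% of all genes). The 6 include Scube1, which entered the male test only through its pravastatin libraries and is described below. The median change of the list in both sexes was 0.03. By role, 0 of 5 genes of ligands and release, 0 of 7 receptors and co-receptors, 1 of 10 Smo regulators, 0 of 21 genes of Gli processing, 1 of 18 cilium genes and 0 of 17 targets were called, each of them higher. With culture terms 4 of 7 receptors and co-receptors, 2 of 10 Smo regulators, 1 of 21 genes of Gli processing, 1 of 18 cilium genes and 4 of 17 targets were higher. By the same fit 1 of 10 Smo regulators, 1 of 21 genes of Gli processing and 1 of 17 targets were lower. Some genes are in more than 1 list, and over all genes the shares were 10.5% higher and 8.13% lower. The 2 calls were Grk3, a kinase that phosphorylates Smo, and Ttc21b, a subunit of the motor cargo that returns proteins from the cilium. Grk3 had 62.4, 60.995, 64.9, 65.7, 73.6 and 78.3 with vehicle and 78.1, 67.3, 69.0, 96.8, 93.9 and 96.2 with pravastatin. It rose in all 6 cultures, by 0.29 ± 0.06 (adjusted p = 0.0281, limma). Ttc21b had 19.5, 17.0, 16.7, 22.8, 20.4 and 20.2 with vehicle and 27.2, 21.3, 22.0, 24.2, 27.5 and 28.3 with pravastatin, and rose by 0.36 ± 0.08 in all 6 cultures (adjusted p = 0.0302, limma). Within the cultures the log2 differences ran from 0.09 to 0.55 for Grk3 and from 0.08 to 0.48 for Ttc21b. In the fit with sex as covariate both calls were marginal. Rescaled to a common total, Grk3 was at an adjusted p of 0.0893 and Ttc21b at 0.0947, and when single libraries were left out Grk3 missed the threshold without female pravastatin 1 and without any 1 of the 6 male libraries (up to 0.0826), and Ttc21b without female pravastatin 1, female vehicle 2 or 3, male vehicle 2 or 3 or male pravastatin 2 or 3 (up to 0.0871).

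Of the 3 ligands only Dhh was measured, and Shh and Ihh were not analysed here. Dhh, a ligand best known from the testis and nerve sheath, had vehicle values of 12.3, 2.77 and 5.83 in the female cultures, while the male cultures had 25.4, 24.8 and 21.2. With pravastatin the same 6 cultures had 7.08, 3.17, 10.4, 17.7, 18.2 and 19.3. In males it fell by 0.36 ± 0.10 (log2, adjusted p = 0.0423, limma), and in both sexes it did not pass (-0.15 ± 0.31, adjusted p = 0.854). The male call was lost without male vehicle 1 (adjusted p = 0.152), male pravastatin 1 (0.0711), male vehicle 2 (0.157) or male pravastatin 2 (0.108), and with limma-voom (0.0516). Without female cultures 2 and 3 it fell by 0.46 in the remaining 8 libraries (adjusted p = 0.00742, limma). Disp2, a relative of the protein that releases ligand, and Hhat, which attaches palmitate to ligand, had the smallest p of this list, and neither passed (0.29 and -0.15, adjusted p = 0.556 and 0.596, limma). Scube1, a secreted protein that aids release, rose in males by 1.04 ± 0.20 (adjusted p = 0.00710, limma), from 0.611 ± 0.0872 to 1.80 ± 0.271 (SD, n = 3). It entered the male test only through its pravastatin libraries, since every male vehicle library was under the filter value of 1 (9 to 12 reads). Its male call is therefore given as a description. In females, where it was too low to be tested, it was also higher in all 3 cultures, by 0.49, 0.55 and 0.16, and its interaction with sex was 0.65 (adjusted p = 1.00, limma). It was named after its values were seen, as were Gsk3b among males, Spp1, Boc, Cdon and Olig2.

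Of the receptors and co-receptors, Hhip, a decoy receptor and target, and Lrp2, an endocytic receptor of Hedgehog ligand, changed in males. In the male libraries 6 of 8 markers of cycling cells were called lower (8 of 8 with culture terms, median change -0.34), and their part in the male calls was not tested. Hhip had 7.51, 7.35 and 7.68 with vehicle and 11.6, 10.3 and 12.6 with pravastatin in male cultures 1 to 3, and rose by 0.58 ± 0.12 (adjusted p = 0.0105, limma, and 0.0544 without male vehicle 2). In females it went from 11.4, 6.29 and 8.48 to 9.16, 6.14 and 9.52, and in both sexes it did not pass (0.26 ± 0.17, adjusted p = 0.459). Lrp2 went from 13.0, 13.2 and 10.4 to 24.4, 22.5 and 18.6 in males, a rise of 0.82 ± 0.13 (adjusted p = 0.00225, limma), and from 10.8, 11.8 and 8.72 to 12.4, 14.0 and 10.2 in females. In both sexes Lrp2 was at 0.52 ± 0.14 (adjusted p = 0.0784, limma), and with culture terms, or without female cultures 2 and 3, it was called (adjusted p = 0.00438 and 0.00513). The sex difference did not pass over all genes (interaction 0.64 for Hhip and 0.60 for Lrp2, adjusted p = 1.00, limma). The lack of a call in this fit, without culture terms, is weak evidence that the sexes responded alike. Gas1, a co-receptor that binds ligand, was higher in all 6 cultures by 0.18 ± 0.07 and called with culture terms only (adjusted p = 0.0307, against 0.217).

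Of the genes that process Gli proteins, Gsk3b, a kinase that marks Gli for trimming, was higher in all 6 cultures (0.29 ± 0.09, adjusted p = 0.132, limma, and 0.00778 with culture terms). It was called in males (0.41 ± 0.11, adjusted p = 0.0336, limma), and the call was lost without male vehicle 1 (0.0970), 2 (0.122) or 3 (0.0795). Prkaca, the catalytic subunit of protein kinase A, did not pass (0.13 ± 0.06, adjusted p = 0.307). Among the targets, Ccnd1, Ccnd2 and Mycn, which drive division, did not pass (0.32 ± 0.38, -0.00 ± 0.29 and 0.24 ± 0.13; adjusted p = 0.724, 0.999 and 0.367, limma). The cultures were unlike in 2 of these. Ccnd1 differed by 0.85 and 1.04 in female cultures 2 and 3 and by -0.12 to 0.11 in the other cultures. Ccnd2 differed by 0.19 and 0.66 in female cultures 2 and 3 and by -0.38 to -0.08 in the others. The paper reported a rise of Ccnd1 mRNA by qRT-PCR at a higher pravastatin dose, not significant at a lower one. Without the 4 libraries of female cultures 2 and 3, Ccnd2 was called lower (adjusted p = 0.0394, limma). Bmi1, a chromatin repressor of the stem cell state, was lower in all 6 cultures (-0.15 ± 0.06, adjusted p = 0.195, limma) and called with culture terms (adjusted p = 0.0287). Spp1, a secreted glycoprotein, was higher in all 6 cultures. It rose in males by 1.00 ± 0.19 (adjusted p = 0.00715, limma), and in females it was at 1.48 ± 1.16 (adjusted p = 1.00, limma, and 0.0189 with culture terms). In both sexes it was at 1.24 ± 0.61 (adjusted p = 0.330, limma, and 0.000284 with culture terms). The male calls of Lrp2, Grk3 and Spp1 held in every alternative in which they were tested. Scube1 was not tested when any male pravastatin library was left out, nor when a value above 5 was required. Those alternatives therefore do not bear on its male call.

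The cultures differed from one another in members and in cell markers. Gfap, an intermediate filament of astrocytes, was 408 and 507 in female culture 2 and 179 and 69.3 in female culture 3 (vehicle, then pravastatin), and 3.96 to 8.31 in the other 8 libraries. These 4 libraries are set beside the other 8 as a description only, since a measured value parts them. Ptch1 ran from 132 to 166 in the 4 and from 86.8 to 130 in the 8, so the 2 ranges did not overlap, though the highest of the 8 and the lowest of the 4 were close. Gli2 ran from 5.32 to 8.72 in the 4 and from 3.02 to 4.48 in the 8. Gli3 ran from 15.0 to 19.2 and from 18.5 to 26.1, Smo from 98.1 to 101 and from 86.6 to 106, and Sufu from 22.0 to 31.3 and from 24.6 to 37.2, and these overlapped. Of all 15093 genes, 14.6% had the 4 libraries all above the 8 and 10.9% all below, and of the members 2 of 5 were above and 0 below. Of the 74 other pathway genes 10 were above and 9 below.

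The 9 below held Ccnd1 (217 to 974, against 1218 to 1431), Ccnd2 (211 to 514, against 620 to 813) and Cdon, a co-receptor (21.2 to 37.1, against 45.2 to 63.6). Boc, a related co-receptor, ran from 16.8 to 30.9 against 12.8 to 17.9, and Dhh from 2.77 to 10.4 against 7.08 to 25.4. The 10 above held Gpr161, a ciliary receptor that holds the pathway off (65.3 to 84.2, against 43.4 to 52.4). Marker lists moved with these libraries. The summed level of the 8 astrocyte markers ran from 1295 to 2481 in the 4 and from 495 to 1045 in the 8, and that of the 5 measured of 8 oligodendrocyte markers from 314 to 785 and from 92.4 to 152. Olig2, a listed target that the paper used as an oligodendrocyte marker, went the other way (322 to 377, against 400 to 498). The 8 markers of cycling cells summed to 861 to 1491 in the 4 and 1694 to 2245 in the 8, with Top2a at 298 to 526 against 562 to 760 and Mki67 at 243 to 438 against 455 to 652. Ttr, a marker of choroid plexus, was 1.53 to 16.9 in the 4 and at 0 in 6 of the 8. The 10 stem and radial glia markers summed to 8538 to 9624 and to 7864 to 9187, with Vim and Fabp7 the highest. Single markers parted in both directions, with 5 above, 1 below and 4 overlapping (14.6% above and 10.9% below over all genes). Nes was below (624 to 895, against 1103 to 1234). Sox2 (438 to 573, against 257 to 297), Hes5 (238 to 458, against 85.2 to 136), Pax6, Slc1a3 and Prom1 were above. Neuronal markers (7 of 9 measured) summed to 946 to 1069 and to 798 to 974, with Map2 and Tubb3 the highest, and those of endothelium (2 of 5, Kdr and Pecam1) to at most 4.86. Dorsal telencephalon markers (5 of 6, led by Lhx2), the region the labels name, summed to 70.9 to 94.98 and to 62.4 to 79.2, and ventral ones (4 of 6, Dlx2 among them) to 28.4 to 32.2 and to 31.5 to 52.7. Choroid plexus and ependyma markers (3 of 4, led by Foxj1 and Otx2) summed to 27.8 to 45.6 and to 18.2 to 27.9, the mural and meningeal ones to 6.37 to 16.5 and to 5.71 to 25.5, and the 5 microglia markers were not analysed here. The highest astrocyte markers were Aldoc and Slc1a2, and the highest oligodendrocyte marker was Cnp. The part of these markers in the values of Ptch1 and Gli2 was not tested. In such bulk samples fewer cells of a type and less RNA per cell cannot be told apart. Without these 4 libraries, the members differed with pravastatin by 0.07 (Gli2), 0.07 (Gli3), 0.11 (Ptch1), 0.01 (Smo) and 0.14 (Sufu), with adjusted p from 0.428 to 0.885 (limma). The calls in the pathway list then numbered 11 of 74 (8 higher and 3 lower). Among all 15208 genes tested 2541 were called (1332 higher and 1209 lower).

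**Figure D4:**
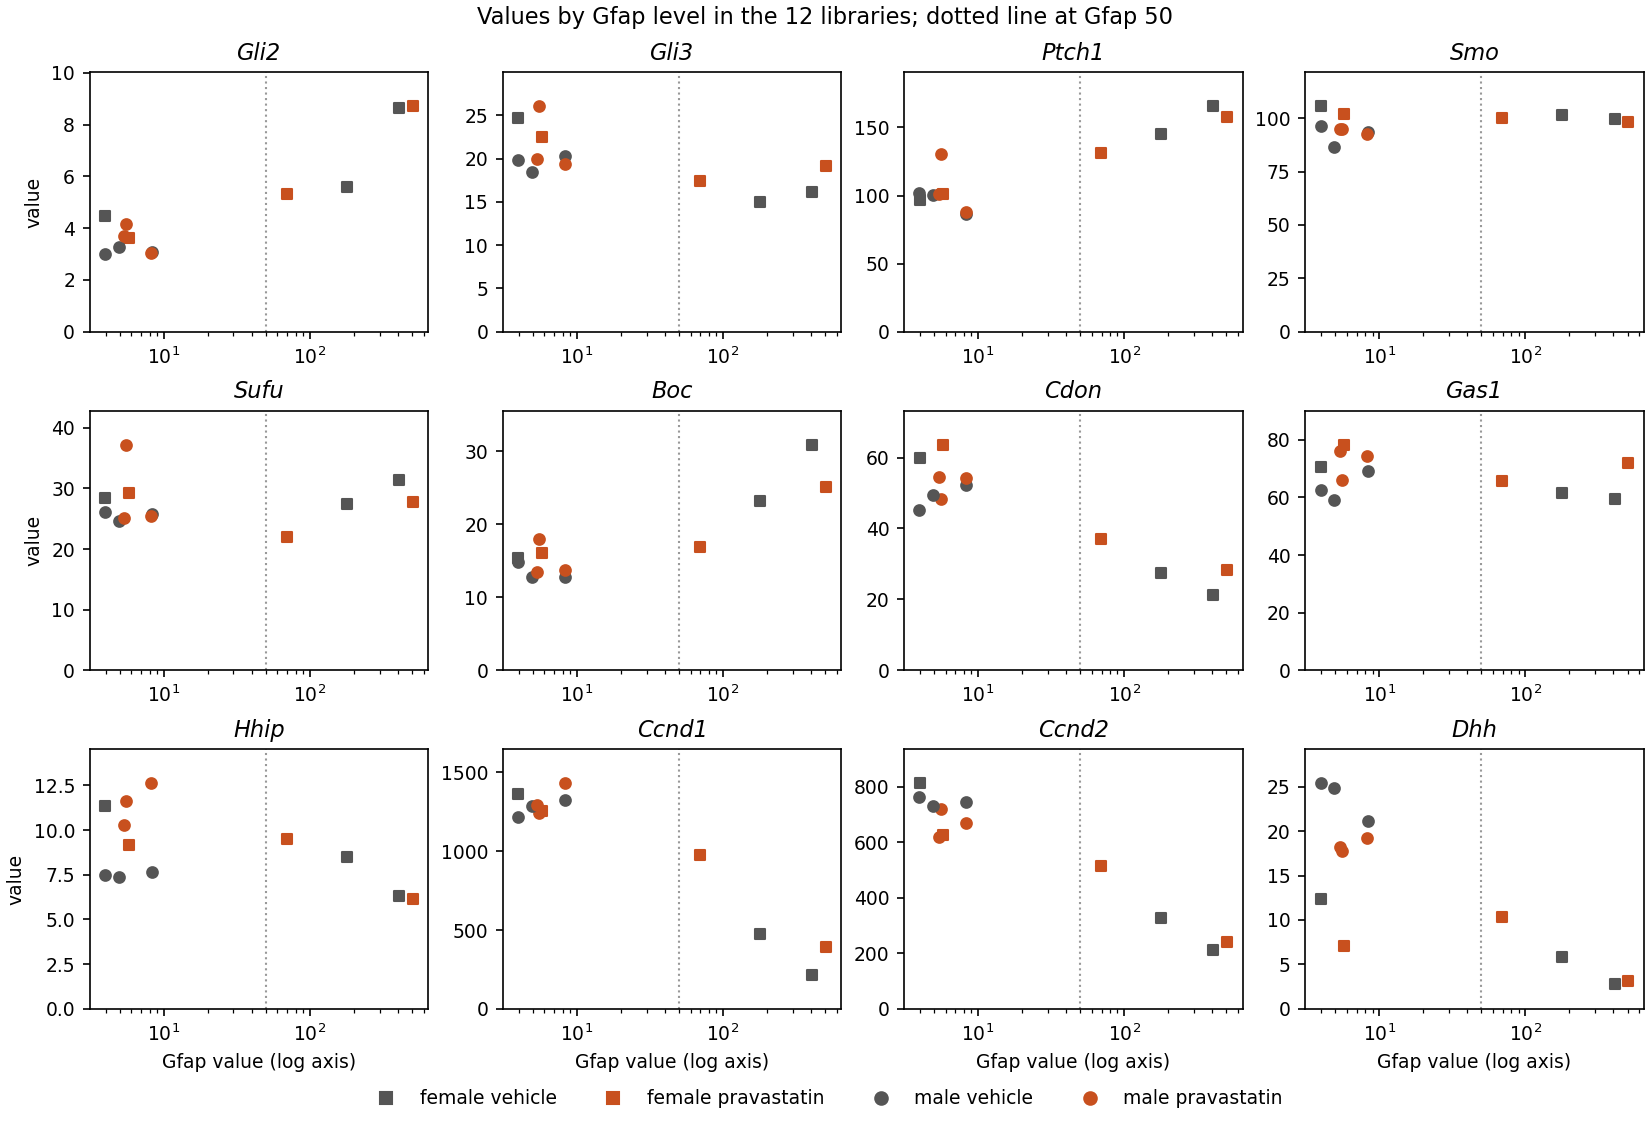
Value of 12 pathway genes (vertical axis from 0) against the Gfap value (log axis) in the 12 libraries, squares female and circles male, grey vehicle and orange pravastatin, with a dotted line at a Gfap value of 50. Ptch1 and Gli2 lie higher, and Ccnd1, Ccnd2 and Cdon lower, in the 4 libraries right of the line.

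The members differed from one another in profile. By the root mean square difference of centred log2(value + 0.5) over the 12 libraries, Gli2 and Ptch1 were 0.229 apart and Smo and Sufu 0.180 apart, while Gli2 and Gli3 were the farthest pair at 0.597. Among 11692 genes searched, the nearest to Ptch1 were Gm2058 (0.073), Pou3f2 (0.077), a transcription factor of neural precursors, and Zfp827 (0.089). Pou3f2 ran from 50.3 to 58.9 in the 4 libraries with high Gfap and from 30.7 to 43.7 in the others. The nearest to Gli2 were Asap3 (0.120), Carmil1 (0.134) and Igsf9b (0.146). The nearest to Gli3 were Nup214 (0.063), a nuclear pore protein, Srrm2 (0.066) and Sf1 (0.067), both splicing factors. The nearest to Smo were Tmem161a (0.043), Ncstn (0.050) and Wdr33 (0.052), and the nearest to Sufu were Pogz (0.075), Gtf2i (0.083) and Eif4ebp2 (0.083). The spread of a member about its own mean on this scale was 0.476 for Gli2, 0.313 for Ptch1, 0.217 for Gli3, 0.182 for Sufu and 0.072 for Smo. These distances are a description over libraries that share cultures.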

How the data were processed

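RNA-Seq was done on 12 libraries with a stranded total RNA kit. Runs of 1 library were joined by the authors, TopHat2 2.1.1 placed the reads on GRCm38, Cufflinks and Cuffmerge built the gene models and HTSeq counted. The signal values deposited by the authors are read counts divided by an effective library size, on a CPM scale. All were whole reads within 0.001 read. Sheets of 1 sex, authors' means and their fold changes, p-values and FDR were not used. The value of 3 reads was 0.157 to 0.228, and intervals cover the spread between libraries only.

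Genes were kept when 6 or more libraries (3 for a single sex) exceeded a value of 1, and were tested by limma 3.58.1 (R 4.3.3) on log2(value + 0.5), with sex as covariate, and a call needed a Benjamini-Hochberg adjusted p under 0.05. The fold change understates that of low genes. Replicate numbers come from the labels. Residuals of the vehicle library and the like-numbered pravastatin library correlated at 0.871, 0.871 and 0.428 in females and 0.182, 0.179 and 0.303 in males, and differently numbered ones at -0.838 to 0.425, the highest being female vehicle 3 with female pravastatin 2, close to the 0.428 of the third female pair. Every like-numbered pair was above 0.1, so they were taken as paired, and the fit with culture terms is given where it changed a call. The residuals were centred within groups of 3 libraries, which ties these correlations to one another. The correlations are therefore weak evidence that the libraries are paired. That these replicates are separate embryos is per the labels. edgeR 4.0.16, DESeq2 1.42.0 and limma-voom on the recovered reads, other pseudocounts, filters and scaling, and leaving out each library were alternatives. The script was tested on simulated data. Symbols in the table turned into dates (21) were restored. The design named limma for these values.

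The members and lists were chosen with earlier results of these data known. Genes named were the members, from each list those called in both sexes or the 2 with the smallest p, Dhh, Hhip, Ccnd1, Ccnd2 and Mycn, the sterol genes, the 3 nearest profiles of each member, and Gfap with the 2 highest genes of each marker list. Some genes that this rule names are not reported here.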

Additional observations from a re-analysis of the deposited data

Results flagged for a closer look

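In 3 of 70 sets of 6 libraries of 1 treatment, a value stood apart from the other 5, with a gap to its neighbour past Dixon's critical value, which chance exceeds in about 5% of sets. Hhat was 0.902 in female vehicle 3, below the other vehicle libraries. Npc1 was 280 in female pravastatin 2, and Abca1 was 196 there, both above the other pravastatin libraries. None of the 5 members was among them, and no interaction of sex and treatment passed for a gene named here. For the fit without culture terms, that lack is weak evidence that the sexes responded alike.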

How the results depend on the processing

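The count of members called was 0 in all 25 alternatives for both sexes, 16 for males, 16 for females and 22 for the interaction. The change in both sexes ran from -0.08 to 0.18 for Gli2, from 0.06 to 0.22 for Gli3, from -0.05 to 0.12 for Ptch1, from -0.06 to 0.02 for Smo and from -0.09 to 0.14 for Sufu, so only Gli3 kept its sign. The smallest adjusted p was 0.198 (limma, Ptch1, culture terms without female cultures 2 and 3).

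The pathway list in both sexes, 2 calls, gave 4 with DESeq2, 1 with values rescaled to a common total, 0 with no sex term, 13 with the replicate block, 11 without female cultures 2 and 3 and 19 with both of these, the last chosen after seeing the data. With single libraries left out it gave 0 to 3. All genes called in both sexes, 453, became 844 with DESeq2, 2810 with the replicate block, 2541 without female cultures 2 and 3 and 3865 with both. Rescaled to a common total, the split of higher to lower calls moved from 406 and 47 to 311 and 142 in both sexes (600 and 244 with DESeq2) and from 925 and 664 to 685 and 1411 in males. In males 1589 calls became 2873 with the replicate block and ran from 606 to 1911 with libraries left out. In females 11 calls became 132 with DESeq2, 2 with edgeR and RLE factors, 1 when rescaled and 324 with the replicate block, and 0 to 19 with libraries left out. The causes were not tested.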
